A study of Mus musculus with 110 samples.

Results

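Levels of 8 DNA repair genes, Msh3, Msh6, Pms2, Pms1, Mlh3, Fan1, Lig1 and Pold1, were followed in neurons, astrocytes and whole tissue of Huntington's disease model mice. The genes were chosen by name, as mismatch repair factors and related enzymes that modify the length of CAG repeats, and they are 8 of the 24056 genes used. All 8 were found by symbol, and all 8 had enough reads to be tested in every comparison. RNA bound to HA-tagged ribosomes (the RiboTag method) was pulled down from 1 cell type, giving the IP, and RNA of the whole tissue is the Input. The mice were R6/2, a line that carries a fragment of the human mutant huntingtin gene, or NCAR mice under the same strain label (R6/2, from Jax). An AAV carried either a zinc-finger repressor of mutant huntingtin, the ZFP, or its control, named Delta. The conditions are R6/2 with ZFP (RZ), R6/2 with Delta (RD), NCAR with ZFP (NZ) and NCAR with Delta (ND). Every group therefore carried an AAV and a ribosomal tag. Of the 4 sets of libraries, n_ZFP_n_Rpl and hSyn hold neuron IPs, and n_ZFP_a_Rpl and MG hold astrocyte IPs. The labels give no tissue, age, promoter or tagged protein, do not say which cells received the ZFP in each set, and do not say whether a replicate is 1 animal or a pool. The n_ZFP_n_Rpl set has 4 libraries of each condition in both fractions, and MG has 4 of each in the IP alone. The hSyn set has 4 RZ, 3 RD, 4 NZ and 5 ND libraries per fraction, and n_ZFP_a_Rpl has 4 RZ, 3 RD, 4 NZ and 4 ND, which makes 110 libraries in all.

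Mismatch repair corrects mispaired bases and small loops in DNA. MutS complexes recognise the mispair, MutL complexes are recruited and cut the strand, a polymerase fills the gap and a ligase seals it. Acting on loops formed by CAG repeats, the same proteins can lengthen the repeat instead of restoring it, also in neurons, which do not divide, and variants of several of these genes shift the age at onset of Huntington's disease in people. Msh3 is the MutS subunit that directs repair to larger loops, and Msh6 the one for base mispairs and the smallest loops. Pms2, Pms1 and Mlh3 are the alternative subunits of the MutL complexes, of which those with Pms2 and Mlh3 cut DNA. Fan1 is a nuclease of interstrand crosslink repair that restrains CAG expansion. Lig1 seals nicks left by replication and repair, and Pold1 is the catalytic subunit of DNA polymerase delta.

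In the RefSeq annotation of GRCm38.p6, Msh3 lies at chr13:92211878-92355004 on the minus strand and Msh6 at chr17:87975050-87990892 on the plus strand. The MutL genes are Pms2 at chr5:143909901-143972745 (plus), Pms1 at chr1:53189187-53297031 (minus) and Mlh3 at chr12:85234466-85270647 (minus). Fan1 at chr7:64345385-64374128 (minus), Lig1 at chr7:13277175-13311426 (plus) and Pold1 at chr7:44532744-44548815 (minus) share a chromosome without being neighbours. Msh6 overlaps Fbxo11 by 34 bases and Lig1 overlaps Zswim9 by 1547 bases. The strand setting of the counting is not given in the sources used here, so reads from such overlaps cannot be told apart.

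Promoter stretches are shown because Lig1, Pold1, Mlh3 and Msh6 were all higher in the 4 R6/2 IPs described further on. RefSeq promoter windows (300 bases, from 250 before to 50 after an annotated start) were searched on both strands for 4 words of the type bound by E2F factors, which act in the cell cycle: TTTGGCGC, TTTCCCGC, TTTCGCGC and TTTGCCGC. A word was found in windows of 4 of the 8 genes, Msh3, Msh6, Lig1 and Pold1, and in none of the windows of Pms2, Pms1, Mlh3 and Fan1. Of all 27025 genes with a window, 2.6% hold such a word. Msh3, which was not called between R6/2 and NCAR, has 2 words in its window, the most of the 8 genes. They overlap, with first bases at -202 and -198 from the start, and their stretch is not shown. The stretches around the matches of Msh6, Lig1 and Pold1 are given on the strand of the gene, with the matched bases in capitals.
Msh6: ctcctcccgacTTTCCCGCcagcggcggcc
Lig1: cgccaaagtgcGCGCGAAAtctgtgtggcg
Pold1: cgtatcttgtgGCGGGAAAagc
The Msh6 stretch (chr17:87975054-87975083, plus) has its word at base 16 after the start. The Lig1 stretch (chr7:13278841-13278870, plus) lies in the second of its 3 annotated windows, and the Pold1 stretch (chr7:44548766-44548787, minus) ends with its window. A match is a description of letters, and whether E2F factors bind there or play a part in these levels was not tested. Of the 4 genes higher in all R6/2 IPs, Lig1, Pold1 and Msh6 have a match and Mlh3 has none, and of the genes with no call between R6/2 and NCAR, Msh3 has a match and Fan1 has none.

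Assigned counts per library ranged from 34.8 M to 72.6 M in the IPs and from 26.4 M to 44.2 M in the Inputs. Levels are CPM, counts relative to the size of the library, after TMM scaling over all 110 libraries, and none is compared between genes, since they are not per length. The 16 astrocyte markers summed to 1873 to 5917 CPM in the n_ZFP_n_Rpl IP and 3004 to 10035 CPM in the hSyn IP, against 13647 to 26279 CPM in the n_ZFP_a_Rpl IP and 14825 to 40810 CPM in the MG IP. The 15 neuron markers summed to 8288 to 14320 and 8405 to 13076 CPM in the n_ZFP_n_Rpl and hSyn IPs, and to 6396 to 9705 and 6367 to 10216 CPM in the n_ZFP_a_Rpl and MG IPs. Astrocyte markers therefore separate the cell types clearly, while the neuron marker sums overlap and no marker of either list is at 0 in either kind of IP. The 12 microglia markers summed to 30.9 to 57.5 CPM in the IPs and 425 to 1904 CPM in the Inputs. The part that RNA of other cells plays in the results below was not tested. In bulk RNA, fewer cells of a type and less RNA per cell cannot be told apart.

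Between neuron and astrocyte IPs, taken as the mean of the 2 neuron sets against the mean of the 2 astrocyte sets over all conditions, the 8 genes divided. Msh3, Pms2 and Mlh3 were higher in neuron IPs, Msh6, Fan1 and Lig1 were lower, and Pms1 and Pold1 did not pass the threshold. A gene is called where the adjusted p of edgeR's quasi-likelihood test (Benjamini-Hochberg over all genes tested) is under 0.05, and differences are log2 values ± SE. Calls on 6 of 8 genes stand beside 83.5% of the 16038 genes tested (46.2% higher and 37.3% lower), so that a call as such is the common outcome here. The median difference was -0.03 over the 8 genes and 0.06 over all genes. Neuron and astrocyte libraries overlapped for all 8, while the groups were apart for 8.67% of all genes. Each set holds 1 cell type, so cell type and set cannot be fully told apart, and the replicates measure only the spread between these samples, which may be technical. For that reason each neuron set was also set against each astrocyte set, where 74.6% (n_ZFP_n_Rpl against n_ZFP_a_Rpl), 83% (n_ZFP_n_Rpl against MG), 79.6% (hSyn against n_ZFP_a_Rpl) and 79.5% (hSyn against MG) of all genes were called.

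**Figure D1:**
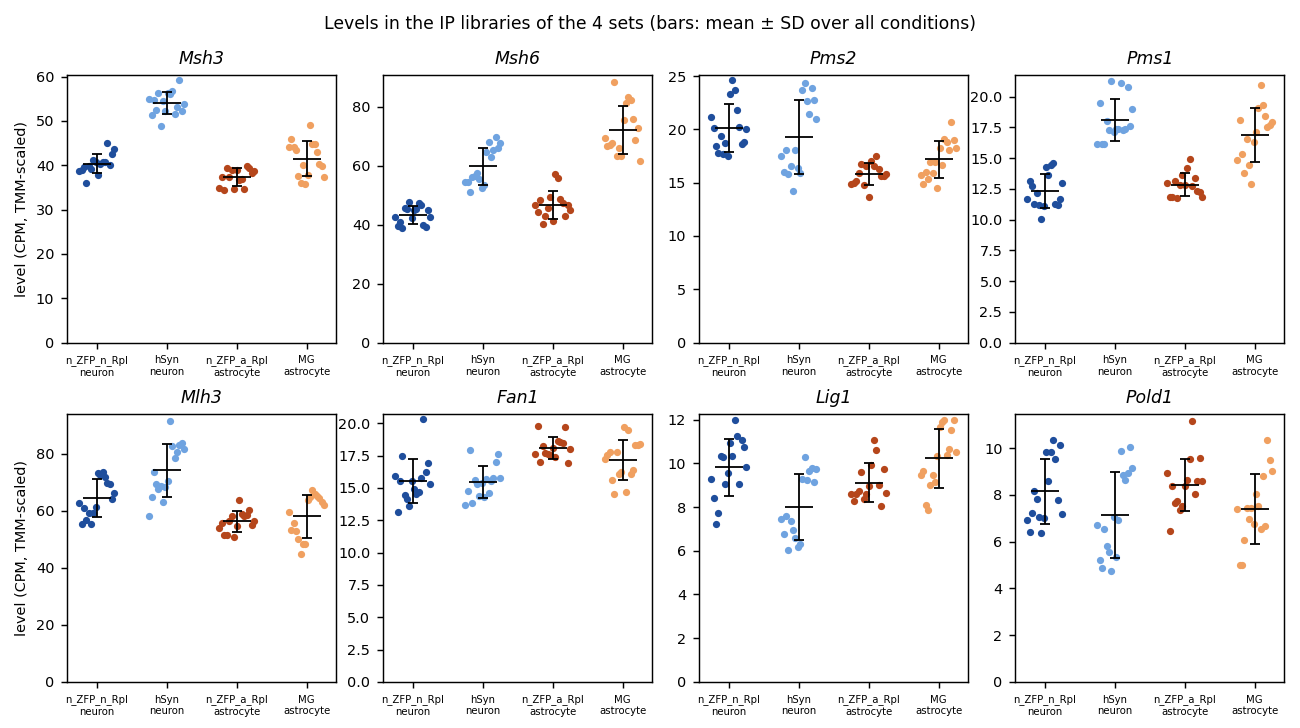
CPM (TMM-scaled, each panel with its own axis from 0) of each gene in every IP library, by set, neuron sets left of astrocyte sets; points are libraries of all conditions, bars the mean ± SD. Msh3 stands highest in the hSyn IP (54.0 ± 2.6 CPM) and Msh6 in the MG IP (72.0 ± 8.2 CPM), while Fan1 lies at 15.5 CPM in both neuron sets and at 17.1 and 18.1 CPM in the astrocyte sets.

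Pms2, Mlh3 and Fan1 kept the direction of their call in all 4 pairs of sets. Mlh3, the MutL subunit whose complex cuts DNA at repeat loops, had 55.2, 69.0 and 91.7 CPM (lowest, median and highest of 32 libraries) in neuron IPs and 44.9, 56.6 and 67.2 CPM (of 31) in astrocyte IPs. The neuron median thus lay above the highest astrocyte library. The difference was 0.26 ± 0.02 (adjusted p 2.91e-18), and over the pairs of sets it ran from 0.10 to 0.43, called each time. Pms2, the MutL subunit of general mismatch repair, had 14.2, 19.1 and 24.6 CPM in neuron IPs and 13.7, 16.3 and 20.7 CPM in astrocyte IPs. Its difference was 0.24 ± 0.02 (adjusted p 4.94e-14), with 0.17 to 0.31 over the pairs. The Pms2 ranges overlap, and the neuron median lay below the highest astrocyte library. Fan1, the nuclease, had 13.1, 15.5 and 20.4 CPM in neuron IPs and 14.5, 17.7 and 19.8 CPM in astrocyte IPs. It was lower in neuron IPs, with a difference of -0.20 ± 0.03 (adjusted p 7.85e-09) and -0.28 to -0.12 over the pairs.

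The values of the MutS subunits depended on the pair of sets. Msh3 had 36.1, 47.0 and 59.2 CPM in neuron IPs and 34.4, 39.0 and 49.0 CPM in astrocyte IPs, a difference of 0.23 ± 0.02 (adjusted p 8.48e-15). The hSyn IP carried it, at 0.41 ± 0.03 against MG and 0.56 ± 0.03 against n_ZFP_a_Rpl. The whole-tissue Input of hSyn was also high in Msh3, with a mean of 50.3 CPM. The Inputs of n_ZFP_n_Rpl and n_ZFP_a_Rpl had means of 35.2 and 42.6 CPM, so the hSyn offset is not particular to its IP. Msh3 in the n_ZFP_n_Rpl IP stood at -0.10 ± 0.03 against MG, called in the opposite direction, and at 0.05 ± 0.03 against n_ZFP_a_Rpl, which was not called (adjusted p 0.121). Msh6 had 38.8, 49.3 and 69.7 CPM in neuron IPs and 40.3, 61.6 and 88.4 CPM in astrocyte IPs, a difference of -0.21 ± 0.03 (adjusted p 1.23e-10). Against n_ZFP_a_Rpl, however, the hSyn IP was higher in Msh6 by 0.38 ± 0.04, and the other 3 pairs lay between -0.79 and -0.18. The Inputs differed as well, with a mean Msh6 level of 51.6 CPM in hSyn, 31.3 CPM in n_ZFP_n_Rpl and 30.5 CPM in n_ZFP_a_Rpl.

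Pms1, the MutL subunit without a known cutting activity, had 10.03, 15.4 and 21.2 CPM in neuron IPs and 11.8, 14.2 and 20.9 CPM in astrocyte IPs. Its difference of 0.00 ± 0.03 (95% interval -0.06 to 0.06) is a mean of pairs that disagree, with 0.52 ± 0.04 and 0.14 ± 0.04 for hSyn against n_ZFP_a_Rpl and MG, and -0.13 ± 0.04 and -0.51 ± 0.04 for n_ZFP_n_Rpl against n_ZFP_a_Rpl and MG. All 4 of these Pms1 pairs were called. Lig1, the ligase, had 6.03, 9.26 and 11.97 CPM in neuron IPs and 7.87, 9.49 and 11.97 CPM in astrocyte IPs. Its difference was -0.14 ± 0.03 (adjusted p 6.85e-06), called lower in 3 pairs and 0.03 ± 0.04 for n_ZFP_n_Rpl against n_ZFP_a_Rpl. Pold1, the polymerase, had 4.75, 7.21 and 10.4 CPM in neuron IPs and 4.99, 7.74 and 11.2 CPM in astrocyte IPs, at -0.07 ± 0.05 (95% interval -0.17 to 0.02). It was called lower without replicate 2 or without replicate 3 of every group (-0.12 and -0.13) and with no filter on low counts (-0.13).

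**Figure D2:**
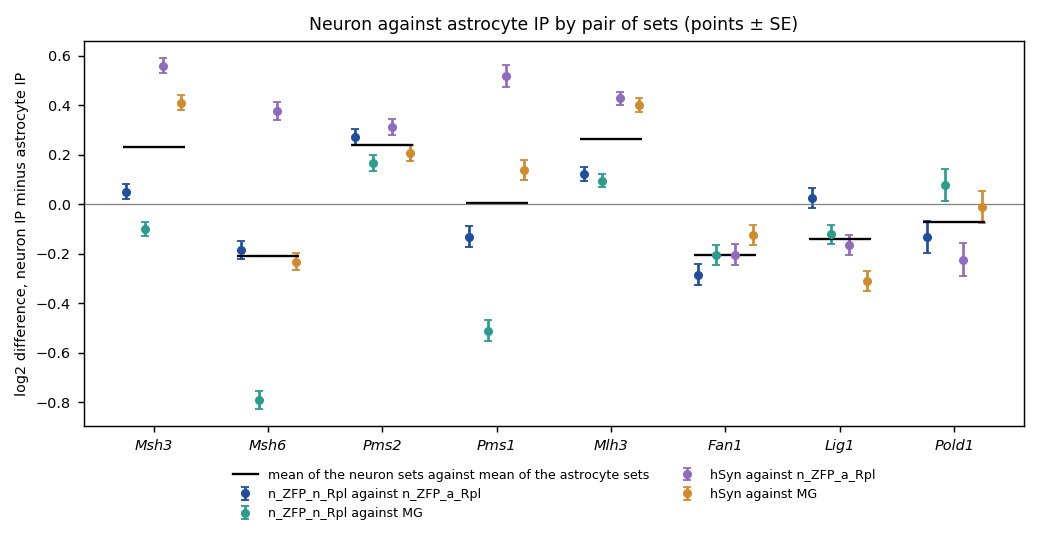
Log2 difference of each gene, neuron IP minus astrocyte IP, for the 4 pairs of sets (coloured points ± SE) and for the mean over sets (black bars). The points of Mlh3 and Pms2 all lie above 0 and those of Fan1 below it, while those of Msh3, Msh6, Pms1 and Lig1 lie on both sides.

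The spread between sets of 1 cell type was tested directly. In the n_ZFP_n_Rpl IP against the hSyn IP, both neuronal, Pms1 (-0.65 ± 0.04), Msh6 (-0.56 ± 0.04), Msh3 (-0.51 ± 0.03) and Mlh3 (-0.31 ± 0.03) were lower, and Lig1 was higher (0.19 ± 0.04). That is 5 calls on the 8 genes, where 72.7% of all genes were called. Pms2 (-0.04 ± 0.03), Fan1 (-0.08 ± 0.04) and Pold1 (0.09 ± 0.07) were not called. In the n_ZFP_a_Rpl IP against the MG IP, both astrocytic, Msh6 (-0.61 ± 0.04), Pms1 (-0.38 ± 0.04), Msh3 (-0.15 ± 0.03), Lig1 (-0.15 ± 0.04) and Pms2 (-0.11 ± 0.03) were lower, and Pold1 was higher (0.21 ± 0.07). These are 6 calls, where 62.5% of all genes were called. Msh6, Pms1 and Msh3 thus stood lower in the n_ZFP set of each cell type. In the neuron sets their mean Input levels were lower in n_ZFP_n_Rpl too. They were 31.3, 23.3 and 35.2 CPM there, against 51.6, 30.0 and 50.3 CPM in the hSyn Input. Set and library preparation cannot be told apart here.

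Other repair genes also went both ways between neuron and astrocyte IPs. Of all genes tested, 46.2% were higher and 37.3% lower, so calls in both directions are the common outcome here. Of 16 partners of mismatch repair, 6 were higher and 8 lower in neuron IPs (median -0.07, against 0.06 for all genes). Rfc5, a subunit of the clamp loader, was higher (0.54 ± 0.04), and Rpa1, the large subunit of the single-strand binding protein RPA, was lower (-0.49 ± 0.02). Of 15 base excision repair genes, 5 were higher and 5 lower, with Polb, the gap-filling polymerase, higher (0.41 ± 0.03) and Lig3, a ligase of that pathway, lower (-0.17 ± 0.02). Of 16 crosslink repair genes tested, 5 were higher and 4 lower. Among 16 markers of replication and proliferation, 3 were higher and 10 lower (median -0.39), with Mcm4, a subunit of the replicative helicase, lower (-0.44 ± 0.02) and Prim1, the primase, higher (0.36 ± 0.04).

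Between R6/2 and NCAR mice with the control AAV (RD against ND), Lig1, Pold1, Mlh3 and Msh6 rose in all 4 IPs. Pms2 rose in 3 IPs and Pms1 in 1, and Msh3 and Fan1 were called nowhere. Higher in RD were 5 of 8 genes in the n_ZFP_n_Rpl IP, 5 in the hSyn IP, 4 in the n_ZFP_a_Rpl IP and 6 in the MG IP, beside 25.2%, 25.4%, 20.6% and 17.4% of all genes tested. In the Inputs 4 were higher in n_ZFP_n_Rpl, 4 in hSyn and 3 in n_ZFP_a_Rpl, beside 26.1%, 22.5% and 24.4%. None of the 8 was lower in RD in any of these 7 comparisons. Called lower were 26.2%, 25.5%, 24.7% and 16.2% of all genes in the 4 IPs and 23.7%, 21.6% and 24.7% in the 3 Inputs, in the same order. The median over the 8 genes ran from 0.14 to 0.26 in the IPs, against -0.00 to 0.04 over all genes. With scaling by total counts alone the medians of all genes shift up by 0.14 to 0.19 in these fits, and differences are given here relative to TMM.

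**Figure D3:**
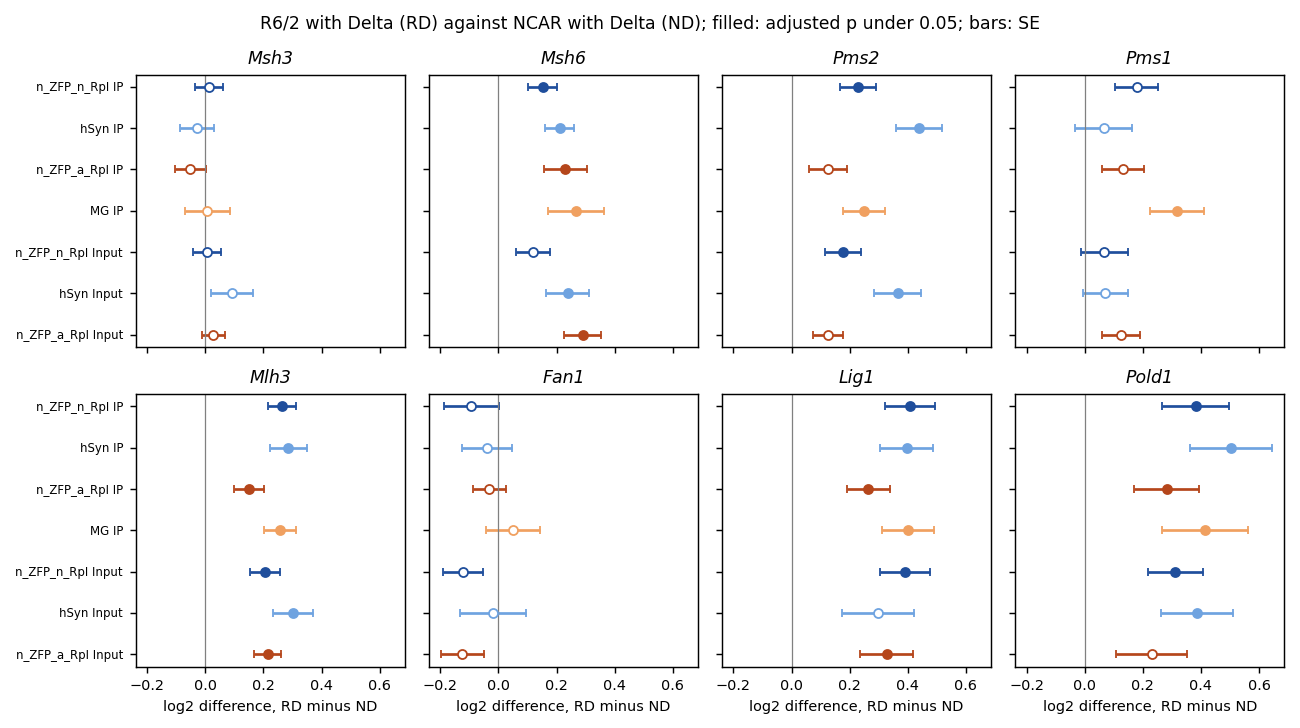
Log2 difference RD minus ND (points ± SE) of each gene in the 4 IPs and 3 Inputs, with filled points where the adjusted p is under 0.05. Lig1, Pold1, Mlh3, Msh6, Pms2 and Pms1 lie right of 0 in every row, filled or not, and Msh3 and Fan1 scatter about 0.

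Lig1, the ligase, rose in every IP. In the n_ZFP_n_Rpl IP it had 10.9, 10.3, 11.97 and 11.2 CPM in RD and 9.27, 8.39, 7.23 and 7.71 CPM in ND, a difference of 0.41 ± 0.09 (adjusted p 0.00106). In the hSyn IP it had 9.27, 10.3 and 9.25 CPM in RD and 7.44, 6.75, 7.58, 6.03 and 7.37 CPM in ND (0.40 ± 0.09, adjusted p 0.00168). All RD libraries of both neuron sets stood above all ND libraries, as they did for 44.6% and 48.9% of all genes in one direction or the other. In the n_ZFP_a_Rpl IP Lig1 had 9.94, 11.1 and 10.6 CPM in RD and 8.61, 8.29, 8.60 and 8.76 CPM in ND (0.26 ± 0.08, adjusted p 0.00968). In the MG IP it had 11.6, 11.9, 11.97 and 10.4 CPM in RD and 9.49, 9.64, 8.10 and 7.87 CPM in ND (0.40 ± 0.09, adjusted p 0.00254). The astrocyte groups did not overlap either, which held for 48% and 37.5% of all genes. These 4 calls remained under each alternative, including each library left out. In the Inputs Lig1 rose by 0.39 ± 0.09 in n_ZFP_n_Rpl and 0.33 ± 0.09 in n_ZFP_a_Rpl, and stood at 0.30 ± 0.12 in hSyn (95% interval 0.04 to 0.56, adjusted p 0.0611). Without ND replicate 0 or RD replicate 2 the hSyn Input value of Lig1 was called too, at 0.40 and 0.38.

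Pold1, the polymerase subunit, rose in every IP with less certainty, at 203 to 741 counts per IP library. It had 9.84, 8.60, 9.86 and 10.4 CPM in RD and 6.95, 6.44, 7.23 and 8.18 CPM in ND in the n_ZFP_n_Rpl IP, with no overlap (0.38 ± 0.11, adjusted p 0.0109). In the hSyn IP Pold1 had 6.94, 9.90 and 8.86 CPM in RD and 6.71, 5.23, 4.89, 6.54 and 5.80 CPM in ND (0.50 ± 0.14, adjusted p 0.00695). The lowest RD library there stood just above the highest ND library, and without RD replicate 2 the call was lost (0.38, adjusted p 0.0603). Groups were apart for 44.6% of all genes in the n_ZFP_n_Rpl IP and 48.9% in the hSyn IP. In the n_ZFP_a_Rpl IP Pold1 rose by 0.28 ± 0.11 (adjusted p 0.0498) and in the MG IP by 0.41 ± 0.15 (adjusted p 0.0421), with overlapping groups. Those astrocyte calls were lost without any 1 of ND replicates 2 and 4 and RD replicates 2 and 3 in n_ZFP_a_Rpl (0.18 to 0.30, adjusted p 0.0768 to 0.252). In MG the Pold1 call was lost without any 1 of ND replicates 2, 3 and 4 and RD replicates 1, 2 and 4 (0.33 to 0.43, adjusted p 0.0678 to 0.137). Pold1 also rose in the n_ZFP_n_Rpl Input (0.31 ± 0.09) and the hSyn Input (0.39 ± 0.12), the second of which was lost without RD replicate 3 (0.36, adjusted p 0.0641). In the n_ZFP_a_Rpl Input it stood at 0.23 ± 0.12 (95% interval -0.03 to 0.49).

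Mlh3 rose in all 7 comparisons of RD with ND. In the n_ZFP_n_Rpl IP it had 73.4, 72.7, 73.4 and 71.7 CPM in RD and 62.7, 55.3, 61.0 and 56.7 CPM in ND (0.26 ± 0.05, adjusted p 0.000356). In the hSyn IP it had 91.7, 82.6 and 78.7 CPM in RD and 58.2, 64.9, 73.8, 69.3 and 67.7 CPM in ND (0.29 ± 0.06, adjusted p 0.00142). In the n_ZFP_a_Rpl IP it had 63.9, 59.1 and 58.3 CPM in RD and 54.0, 55.7, 51.5 and 51.6 CPM in ND (0.15 ± 0.05, adjusted p 0.0302). RD stood above ND in all 3 sets, where groups were apart for 44.6%, 48.9% and 48% of all genes. The astrocyte call was lost without ND replicate 3, ND replicate 4 or RD replicate 1 (0.14, 0.13 and 0.10, adjusted p 0.071, 0.0702 and 0.157). In the MG IP Mlh3 had 63.9, 64.9, 67.2 and 65.9 CPM in RD and 59.7, 53.2, 55.6 and 52.9 CPM in ND, again with no overlap (0.26 ± 0.06, adjusted p 0.00217). Groups were apart for 37.5% of all genes in that IP. The Input differences were 0.20 ± 0.05 in n_ZFP_n_Rpl, 0.30 ± 0.07 in hSyn and 0.21 ± 0.05 in n_ZFP_a_Rpl.

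Msh6, the MutS subunit for base mispairs, rose in each IP with RD and ND libraries apart in all 4. Of all genes, 44.6% (n_ZFP_n_Rpl), 48.9% (hSyn), 48% (n_ZFP_a_Rpl) and 37.5% (MG) were apart in these IPs too. Msh6 had 45.1, 45.3, 47.4 and 46.8 CPM in RD and 42.5, 39.4, 40.7 and 38.8 CPM in ND in the n_ZFP_n_Rpl IP (0.15 ± 0.05, adjusted p 0.02). In the hSyn IP it had 64.7, 68.1 and 62.8 CPM in RD and 54.3, 54.3, 50.9, 56.0 and 56.5 CPM in ND (0.21 ± 0.05, adjusted p 0.00182). In the astrocyte IPs Msh6 rose by 0.23 ± 0.07 in n_ZFP_a_Rpl (adjusted p 0.0206) and by 0.27 ± 0.10 in MG (adjusted p 0.043). The hSyn IP call held without any 1 library, and the others did not. The n_ZFP_n_Rpl IP call of Msh6 was lost without ND replicate 2, ND replicate 4 or RD replicate 3 (adjusted p 0.0532 to 0.0584), and the n_ZFP_a_Rpl IP call without ND replicate 4, RD replicate 1 or RD replicate 2 (0.18 to 0.21, adjusted p 0.0612 to 0.102). The MG IP call of Msh6 was lost without any 1 library other than RD replicate 1 (0.24 to 0.28, adjusted p 0.063 to 0.101). In the Inputs Msh6 rose in hSyn (0.24 ± 0.07, lost without RD replicate 1 at adjusted p 0.0712) and n_ZFP_a_Rpl (0.29 ± 0.06), and stood at 0.12 ± 0.06 in n_ZFP_n_Rpl.

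Pms2 rose most in the hSyn IP, with 23.7, 24.3 and 22.7 CPM in RD and 17.5, 15.97, 18.03, 15.8 and 16.5 CPM in ND (0.44 ± 0.08, adjusted p 0.000166). In the n_ZFP_n_Rpl IP it had 23.3, 24.6, 23.7 and 21.9 CPM in RD and 21.1, 20.2, 18.5 and 17.7 CPM in ND (0.23 ± 0.06, adjusted p 0.00517). In the MG IP it had 18.2, 16.6, 19.1 and 18.8 CPM in RD and 15.7, 14.8, 15.96 and 15.4 CPM in ND (0.25 ± 0.07, adjusted p 0.0147). RD stood above ND in each of these, where groups were apart for 48.9%, 44.6% and 37.5% of all genes. The MG call was lost without RD replicate 3 or RD replicate 4 (0.22 each, adjusted p 0.055 and 0.0533). In the n_ZFP_a_Rpl IP Pms2 stood at 0.13 ± 0.06 (95% interval -0.01 to 0.26). In the Inputs it rose in hSyn (0.36 ± 0.08) and in n_ZFP_n_Rpl (0.18 ± 0.06), the second call being lost without ND replicate 2, ND replicate 4, RD replicate 2 or RD replicate 4 (0.15 to 0.16, adjusted p 0.0566 to 0.0898). In the n_ZFP_a_Rpl Input Pms2 stood at 0.13 ± 0.05, called without RD replicate 1 (0.16, adjusted p 0.0329).

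Pms1 rose in the MG IP, with 17.1, 19.1, 20.9 and 19.3 CPM in RD and 14.8, 18.1, 15.3 and 13.7 CPM in ND (0.32 ± 0.09, adjusted p 0.0164). These groups overlap through ND replicate 2, and the call was lost without ND replicate 4 or RD replicate 3 (0.26 each, adjusted p 0.0577 and 0.0647). In the n_ZFP_n_Rpl IP Pms1 had 14.3, 13.6, 14.4 and 14.6 CPM in RD and 11.7, 13.2, 12.7 and 11.3 CPM in ND (0.18 ± 0.07, adjusted p 0.0545). That value was called without ND replicate 2 or ND replicate 3 (0.21 each), and by DESeq2 (adjusted p 0.0446). Pms1 stood at 0.07 ± 0.10 in the hSyn IP, 0.13 ± 0.07 in the n_ZFP_a_Rpl IP and 0.07 to 0.12 in the Inputs, where it was called in n_ZFP_a_Rpl without ND replicate 4 (0.17, adjusted p 0.0368).

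For Msh3 and Fan1, which act on the repeat in opposite directions, the intervals bound any change. Msh3 in the n_ZFP_n_Rpl IP had 37.7, 40.3, 40.6 and 40.7 CPM in RD and 38.8, 38.9, 39.7 and 36.1 CPM in ND. Its RD minus ND values ran from -0.05 to 0.09 over the 7 comparisons, and the 95% intervals lay within -0.17 and 0.24. Fan1 in the same IP had 14.96, 14.5, 14.7 and 15.8 CPM in RD and 15.9, 13.1, 15.6 and 17.5 CPM in ND. Its values ran from -0.12 to 0.05 and its intervals lay within -0.29 and 0.25. With total counts as the only scaling, Msh3 was called higher in the 3 Inputs and the n_ZFP_n_Rpl IP (0.16 to 0.24), and Fan1, called nowhere under that scaling either, turned positive in each comparison where TMM gave a negative value.

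The R6/2 difference was compared between the cell types in 1 model of all IPs. None of the 8 genes was called by edgeR's test of this difference (1 at an unadjusted p under 0.05, and 0 by DESeq2), where 20.7% of all genes were. The differences of differences ran from -0.09 ± 0.09 (Pms1) to 0.16 ± 0.07 (Pms2, 95% interval 0.02 to 0.29, adjusted p 0.083). For Lig1 the value was 0.08 ± 0.08 and for Mlh3 0.08 ± 0.05.

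Other repair and replication genes moved between RD and ND as well. Of all genes, 25.2%, 25.4%, 20.6% and 17.4% were higher in the n_ZFP_n_Rpl, hSyn, n_ZFP_a_Rpl and MG IPs. Lower were 26.2%, 25.5%, 24.7% and 16.2% of all genes, in that order. In the order n_ZFP_n_Rpl, hSyn, n_ZFP_a_Rpl and MG IP, the replication and proliferation markers had 8 of 15, 8 of 15, 9 of 16 and 9 of 16 tested genes higher. Lower were 2 of them in the n_ZFP_n_Rpl IP and 0 in the other 3. Their medians were 0.52, 0.60, 0.58 and 0.45, against -0.00, -0.00, -0.00 and 0.04 over all genes. Mcm6, a helicase subunit, rose by 1.07 ± 0.10, 1.19 ± 0.19, 0.77 ± 0.09 and 0.86 ± 0.16. The summed level of the 16 markers was 90.4 to 99.0 CPM in RD and 63.6 to 72.98 CPM in ND in the n_ZFP_n_Rpl IP, and 105 to 122 CPM in RD and 79.1 to 88.3 CPM in ND in the MG IP. Markers of oligodendrocyte precursors, a dividing cell type, summed to 63.2 to 113 CPM in RD and 37.2 to 59.1 CPM in ND in the n_ZFP_n_Rpl IP. In the MG IP they summed to 103 to 218 CPM in RD and 132 to 171 CPM in ND, so that the groups were apart in the neuron IP and overlapped in the astrocyte IP. Astrocyte markers summed to less in RD than in every ND library in all 4 IPs, at 1873 to 2519 CPM in RD against 3425 to 4599 CPM in ND in the n_ZFP_n_Rpl IP and 14825 to 21087 CPM in RD against 23894 to 30189 CPM in ND in the MG IP. Neuron markers also summed to less in RD than in every ND library in all 4 IPs. Their sums were 8288 to 9703 CPM in RD against 12276 to 14320 CPM in ND in the n_ZFP_n_Rpl IP and 9408 to 9624 CPM in RD against 11756 to 12876 CPM in ND in the hSyn IP. In the astrocyte IPs they were 6396 to 6957 CPM in RD against 9378 to 9678 CPM in ND in n_ZFP_a_Rpl and 6367 to 7714 CPM in RD against 9528 to 10216 CPM in ND in MG. The part of these shifts in the results on the 8 genes was not tested.

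Among the partners of mismatch repair, 7 of 14, 10 of 15, 6 of 15 and 7 of 15 tested genes were higher in RD, in the same order of IPs, and 1, 1, 2 and 1 were lower. Of all genes, 25.2%, 25.4%, 20.6% and 17.4% were higher in these IPs, and 26.2%, 25.5%, 24.7% and 16.2% lower. Rpa1 rose in all 4 (0.26 ± 0.03, 0.40 ± 0.05, 0.27 ± 0.04 and 0.33 ± 0.06), and Rfc5, of the clamp loader, fell in all 4 (-0.95 ± 0.08, -0.68 ± 0.10, -0.72 ± 0.12 and -0.68 ± 0.17). Base excision repair went the other way in part, with 2, 3, 0 and 2 genes higher and 4, 4, 3 and 2 lower. Polb fell in all 4 IPs (-0.96 ± 0.08, -1.30 ± 0.10, -0.73 ± 0.06 and -0.71 ± 0.11), and so did Parp1, the strand-break sensor (-0.53 ± 0.05, -0.34 ± 0.06, -0.23 ± 0.05 and -0.19 ± 0.07). Crosslink repair, the pathway of Fan1, had 7, 5, 5 and 6 of 16 genes higher and 4, 4, 3 and 1 lower. Beside the shares of all genes, these small counts give no direction for the pathway. Among the lower ones, Fancb, a core complex subunit, fell in all 4 (-1.07 ± 0.14, -0.95 ± 0.13, -0.98 ± 0.09 and -0.99 ± 0.16). Of 7 other modifiers of CAG length or onset, 4, 4, 3 and 2 were higher and none lower. Rrm2b, a subunit of ribonucleotide reductase, rose by 0.81 ± 0.06, 0.96 ± 0.07, 0.28 ± 0.04 and 0.36 ± 0.08. This change between RD and ND differed between the cell types by 0.57 ± 0.06 (neuron minus astrocyte IPs).

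With the ZFP in R6/2 mice (RZ against RD), 4 changes were called, all of them decreases, in the 2 n_ZFP sets. This comparison shares its RD libraries with RD against ND, and the values of both are given side by side. In the n_ZFP_n_Rpl IP, Pms2 and Pms1 fell, 2 of 8 genes where 7.95% of all genes were lower. In the n_ZFP_a_Rpl IP, Lig1 and Msh6 fell, 2 of 8 where 14.7% were lower. In either direction 17.4% and 33.8% of all genes were called in these IPs. Markers of cell types were apart as well. Astrocyte markers in the n_ZFP_a_Rpl IP summed to 13647 to 14873 CPM in RZ against 17341 to 18759 CPM in RD, and neuron markers to 8481 to 9001 CPM in RZ against 6396 to 6957 CPM in RD. Neuron markers in the n_ZFP_n_Rpl IP summed to 10010 to 10665 CPM in RZ against 8288 to 9703 CPM in RD, while the astrocyte marker sums overlapped, at 2354 to 3559 CPM in RZ and 1873 to 2519 CPM in RD. Over the mean of the sets, Lig1 and Msh6 stood lower in neuron than in astrocyte IPs, but this did not hold in every pair with n_ZFP_a_Rpl. Against that IP, Lig1 was not lower in the n_ZFP_n_Rpl IP, and Msh6 was higher in the hSyn IP. The part of these marker shifts in the calls was not tested. No member was called in the hSyn IP (0.0391% of all genes), the MG IP (0.0782%) or the Inputs of n_ZFP_n_Rpl (3.32%), hSyn (0%) and n_ZFP_a_Rpl (16.1%). At an unadjusted p under 0.05 there were 2 members in the MG IP, 0 in the hSyn IP, and 1, 0 and 2 in the n_ZFP_n_Rpl, hSyn and n_ZFP_a_Rpl Inputs, and DESeq2 called 0 in each.

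Pms2 in the n_ZFP_n_Rpl IP had 20.2, 18.7, 18.8 and 20.04 CPM in RZ and 23.3, 24.6, 23.7 and 21.9 CPM in RD, with no overlap. The difference was -0.25 ± 0.06 (adjusted p 0.0106) and held without any 1 library. Beside it, Pms2 was 0.23 ± 0.06 between RD and ND. Pms1 in that IP had 11.3, 11.2, 11.7 and 12.98 CPM in RZ and 14.3, 13.6, 14.4 and 14.6 CPM in RD, also apart, as were 25.1% of all genes (-0.26 ± 0.07, adjusted p 0.0262), beside 0.18 ± 0.07 between RD and ND. The Pms1 call was lost without RD replicate 1, 3 or 4 or RZ replicate 1, 2 or 3 (-0.26 to -0.23, adjusted p 0.0505 to 0.0795). Msh6 was not called there (-0.13 ± 0.05, adjusted p 0.0794), except without RZ replicate 3 (-0.17) and by DESeq2 (adjusted p 0.0497). The RZ and RD libraries of Msh6 were apart, with RZ lower. Mlh3 was not called either, with libraries apart at 64.0 to 69.9 CPM in RZ and 71.7 to 73.4 CPM in RD. At an unadjusted p under 0.05 there were 5 members in this IP.

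Lig1 in the n_ZFP_a_Rpl IP had 9.01, 8.04, 9.73 and 8.64 CPM in RZ and 9.94, 11.1 and 10.6 CPM in RD (-0.23 ± 0.08, adjusted p 0.0298). Msh6 had 47.3, 42.8, 46.7 and 44.8 CPM in RZ and 57.2, 55.7 and 48.5 CPM in RD (-0.22 ± 0.07, adjusted p 0.0323). Between RD and ND these genes stood at 0.26 ± 0.08 and 0.23 ± 0.07. The RZ and RD libraries were apart for both, as they were for 41.3% of all genes. The Lig1 call was lost without any 1 library other than RD replicate 1 and RZ replicate 3 (-0.23 to -0.19, adjusted p 0.0501 to 0.117), and the Msh6 call without RD replicate 1 or 2 or RZ replicate 2 or 4 (-0.22 to -0.17, adjusted p 0.0628 to 0.141). Msh3 in that IP stood at 0.14 ± 0.05 (adjusted p 0.0601), called in a fit of RZ and RD alone (adjusted p 0.0356). Libraries were apart for Msh3 too, with RZ higher. Pms2 was not called there, with libraries apart at 15.6 to 16.3 CPM in RZ and 16.5 to 17.5 CPM in RD. In the n_ZFP_a_Rpl Input, Msh6 stood at -0.17 ± 0.06, called without RD replicate 3 (-0.25, adjusted p 0.00945). For the hSyn and MG IPs the 95% intervals of RZ minus RD in Lig1 were -0.21 to 0.19 and -0.26 to 0.11, and the MG interval includes the value of the n_ZFP_a_Rpl IP.

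Other repair genes were called in RZ against RD in the same sets. Of all genes, 7.95% were lower in the n_ZFP_n_Rpl IP and 14.7% in the n_ZFP_a_Rpl IP. In either direction 17.4% and 33.8% of all genes were called. Of the replication and proliferation markers, 0 were higher and 7 of 15 lower in the n_ZFP_n_Rpl IP, and 0 higher and 7 of 16 lower in the n_ZFP_a_Rpl IP (medians -0.40 and -0.47, against 0.00 and -0.00 over all genes). Mcm6 fell in both (-0.55 ± 0.10 and -0.65 ± 0.09). Of the partners of mismatch repair, 1 of 14 was higher and 5 lower in the first set, and 1 of 15 higher and 4 lower in the second. Rfc5 rose in both (0.44 ± 0.08 and 0.70 ± 0.12), as did Polb (0.48 ± 0.08 and 0.56 ± 0.06). In the hSyn and MG IPs no gene of these lists was called, where 0.0391% and 0.0782% of all genes were. Lig1, Msh6, Pms2 and Pms1 are plotted by condition because they hold the 4 calls.

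**Figure D4:**
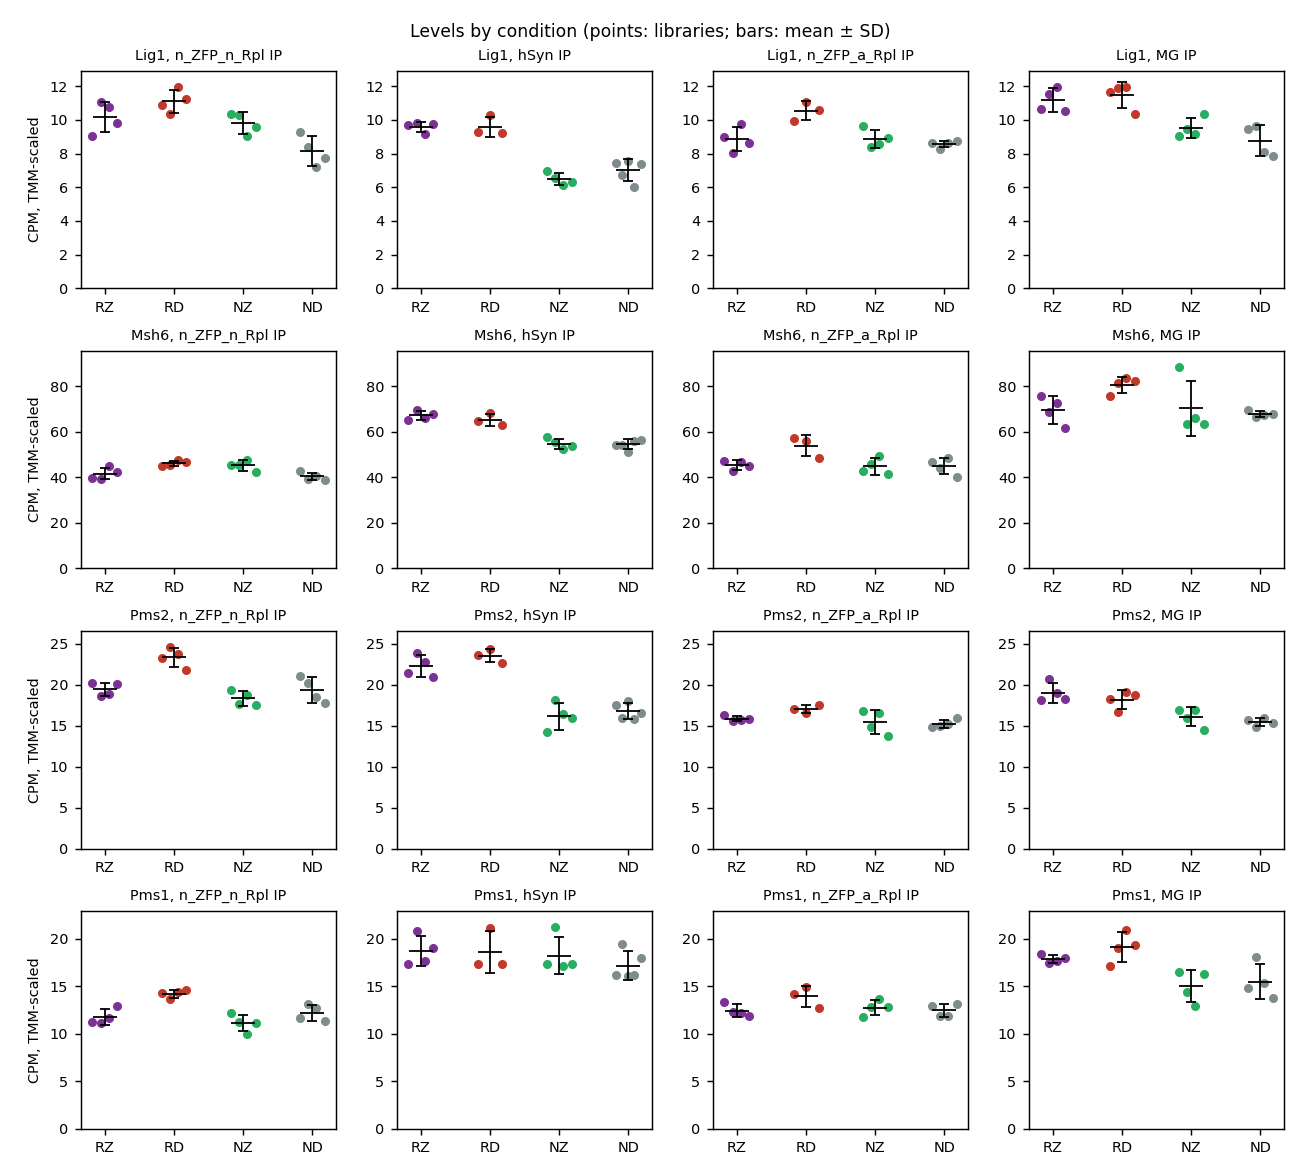
CPM (TMM-scaled, axes from 0) of Lig1, Msh6, Pms2 and Pms1 in the IP libraries by condition, neuron sets left of astrocyte sets; points are libraries, bars the mean ± SD. All RZ points lie below RD for Pms2, Pms1 and Msh6 in the n_ZFP_n_Rpl IP and for Lig1, Msh6 and Pms2 in the n_ZFP_a_Rpl IP. Of these, Msh6 in the first and Pms2 in the second were not called. RD lies above ND for Lig1 in each set.

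In NCAR mice (NZ against ND, which shares ND with RD against ND), calls were made in the MG IP alone, where 2 of 8 genes were lower, beside 3.36% of all genes (7.05% in either direction). Msh3 had 37.6, 36.0, 40.0 and 35.8 CPM in NZ and 44.0, 46.0, 44.0 and 43.4 CPM in ND (-0.28 ± 0.08, adjusted p 0.0447). Mlh3 had 50.1, 44.9, 48.3 and 48.5 CPM in NZ and 59.7, 53.2, 55.6 and 52.9 CPM in ND (-0.24 ± 0.06, adjusted p 0.0293). Both pairs of groups were apart, as were 17.8% of all genes, and both calls depended on single libraries. Neuron markers in the MG IP were apart too, at 8317 to 8846 CPM in NZ against 9528 to 10216 CPM in ND, and astrocyte markers overlapped, at 21144 to 40810 CPM in NZ and 23894 to 30189 CPM in ND. Over the mean of the sets, Msh3 and Mlh3 stood higher in neuron IPs, although Msh3 was called lower in the n_ZFP_n_Rpl IP than in the MG IP. The part of the marker shift in their calls was not tested. The Msh3 call was lost without any 1 of the 4 ND libraries or NZ replicates 3 and 5 (-0.29 to -0.25, adjusted p 0.071 to 0.128), and the Mlh3 call without ND replicate 1, 2 or 3 or NZ replicate 3 or 5 (-0.26 to -0.20, adjusted p 0.0683 to 0.0959). No member was called in the n_ZFP_n_Rpl, hSyn and n_ZFP_a_Rpl IPs, where 7.36%, 0.0261% and 2.07% of all genes were, or in their Inputs, where 3.03%, 0.00622% and 0.957% were. Among these, 2 members in the n_ZFP_n_Rpl IP, 1 in its Input and 0 elsewhere had an unadjusted p under 0.05, and DESeq2 called 0. In the other 3 IPs Msh3 stood between -0.02 and 0.06 and Mlh3 between -0.02 and 0.04. In the n_ZFP_n_Rpl set, Lig1 stood at 0.26 ± 0.09 in the IP and 0.27 ± 0.09 in the Input (adjusted p 0.0846 and 0.0958), and both were called without ND replicate 1 (0.32 each, adjusted p 0.0388 and 0.0426).

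The test of whether the ZFP difference itself differed between R6/2 and NCAR called 1 gene, Msh6 in the n_ZFP_n_Rpl IP, where 4.68% of all genes were lower and 13.1% called in either direction. Msh6 had 39.8, 39.3, 44.8 and 42.5 CPM in RZ, 45.1, 45.3, 47.4 and 46.8 CPM in RD, 45.5, 45.2, 47.7 and 42.3 CPM in NZ, and 42.5, 39.4, 40.7 and 38.8 CPM in ND. RZ minus RD was thus negative (-0.13 ± 0.05) and NZ minus ND positive (0.15 ± 0.05), and their difference was -0.28 ± 0.07 (adjusted p 0.0171). Lig1 in the same IP stood at -0.37 ± 0.12 (95% interval -0.63 to -0.11, adjusted p 0.0589), called by DESeq2 (adjusted p 0.0294) and without ND replicate 1 (-0.43, adjusted p 0.0254). Fan1 stood there at 0.34 ± 0.13, called without ND replicate 2 (0.41, adjusted p 0.0418). Msh3 stood there at 0.06 ± 0.07, or -0.05 under total counts alone. In the hSyn, n_ZFP_a_Rpl and MG IPs, where 0%, 16.5% and 0% of all genes were called, no member was called (0, 1 and 0 at an unadjusted p under 0.05, 0 by DESeq2), although Lig1 in the n_ZFP_a_Rpl IP was called without RZ replicate 3 (-0.32, against -0.27 ± 0.10).

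The IP was set against the Input of the same set over the 4 conditions, for the 3 sets with both, in fits that do not pair libraries. Neuron markers had a median sum of 11057 CPM in the IP and 6866 CPM in the Input of n_ZFP_n_Rpl, and of 11506 and 7440 CPM in IP and Input of hSyn. In the astrocyte set n_ZFP_a_Rpl they were also higher in the IP than in the Input, at 9378 and 7246 CPM. Astrocyte markers had a median of 3492 CPM in the IP and 6020 CPM in the Input of n_ZFP_n_Rpl, and of 19920 and 6095 CPM in IP and Input of n_ZFP_a_Rpl. In hSyn they were close, at 5957 CPM in the IP and 6357 CPM in the Input. Markers of the other cell type were thus present in each IP, and their part in the IP over Input values was not tested. Pms1 and Pms2 were lower and Msh6 was higher in the IP in all 3. Calls were made on 7 of 8 genes in n_ZFP_n_Rpl, 5 in hSyn and 7 in n_ZFP_a_Rpl, beside 83.3%, 78.7% and 84.9% of all genes. Scaling by total counts alone shifts the median of all genes by -0.21, -0.20 and -0.19, so values smaller than about that size have a direction only relative to TMM.

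Pms1 stood out by size. It averaged 12.3 ± 1.4 CPM in the IP and 23.3 ± 2.1 CPM in the Input of n_ZFP_n_Rpl (-0.98 ± 0.04, SD over 16 libraries each), 18.1 ± 1.7 and 30.0 ± 2.2 CPM in IP and Input of hSyn (-0.73 ± 0.04), and 12.8 ± 0.9 and 25.1 ± 1.8 CPM in IP and Input of n_ZFP_a_Rpl (-0.98 ± 0.03). No IP library reached the lowest Input library in any set, which held for 27.8%, 17.1% and 31.3% of all genes. Pms2 was lower in the IP by -0.09 ± 0.03, -0.15 ± 0.04 and -0.44 ± 0.03 in the same order of sets, the first of which was not called over the ND groups alone (-0.07) or with no filter on low counts (-0.07). Msh6 was higher by 0.41 ± 0.03, 0.21 ± 0.03 and 0.61 ± 0.04, and with total counts alone its hSyn value was 0.00.

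Msh3 was higher in the neuron IPs than in their Inputs, by 0.14 ± 0.02 in n_ZFP_n_Rpl and 0.10 ± 0.03 in hSyn, and lower in the astrocyte IP of n_ZFP_a_Rpl, by -0.20 ± 0.02, with the neuron values turning to -0.08 and -0.11 under total counts alone. The hSyn call of Msh3 was lost without replicate 2 of every group (0.09, adjusted p 0.0523). Mlh3 was higher in both neuron IPs (0.28 ± 0.03 each) and stood at 0.02 ± 0.02 in the astrocyte IP, or -0.17 under total counts alone. Fan1 was lower in the n_ZFP_n_Rpl IP (-0.13 ± 0.04) and higher in the n_ZFP_a_Rpl IP (0.08 ± 0.03, or -0.11 under total counts alone). The Fan1 calls were lost without replicate 3 of every group in n_ZFP_n_Rpl (-0.11, adjusted p 0.0688) and without replicate 1 or 4 in n_ZFP_a_Rpl (0.08 and 0.07, adjusted p 0.0901 and 0.09), and the second also with DESeq2 or RLE factors (0.06 each). Over the ND groups alone neither was called (-0.11 and 0.04). Lig1 was higher in the astrocyte IP (0.32 ± 0.04) and stood at 0.08 ± 0.04 and -0.00 ± 0.05 in the n_ZFP_n_Rpl and hSyn IPs, or -0.13 and -0.21 under total counts alone. With the replicate block, Lig1 was called in n_ZFP_n_Rpl (0.08, adjusted p 0.0218), where same-numbered IP and Input libraries deviate together. Pold1 was higher in the n_ZFP_n_Rpl IP (0.24 ± 0.05, or 0.02 under total counts alone) and the n_ZFP_a_Rpl IP (0.37 ± 0.06), and stood at 0.12 ± 0.07 in hSyn, called without replicate 1 of every group (0.18, adjusted p 0.0418).

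**Figure D5:**
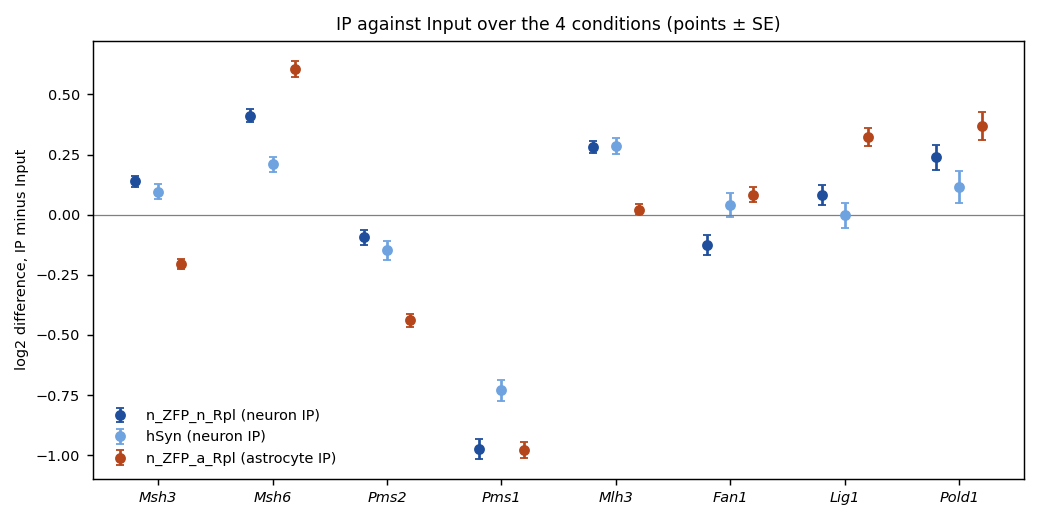
Log2 difference IP minus Input of each gene over the 4 conditions (points ± SE) in the n_ZFP_n_Rpl, hSyn and n_ZFP_a_Rpl sets. Pms1 is lowest in each set, between -0.98 and -0.73, and the astrocyte point lies below both neuron points for Msh3, Pms2 and Mlh3 and above them for Msh6, Fan1, Lig1 and Pold1.

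The ratio of each gene in the IP to its own Input was compared between n_ZFP_n_Rpl (neuron) and n_ZFP_a_Rpl (astrocyte), which removes level differences shared by IP and Input of a set. The IP minus Input value was higher in the neuron set for Msh3 (0.33 ± 0.03), Pms2 (0.33 ± 0.04) and Mlh3 (0.25 ± 0.03), and lower there for Msh6 (-0.21 ± 0.04), Fan1 (-0.22 ± 0.05) and Lig1 (-0.25 ± 0.06). These 6 calls stand beside 67.2% of all genes. Pms1 (-0.01 ± 0.05) and Pold1 (-0.14 ± 0.08) were not called, and Pold1 was called with the replicate block (-0.15, adjusted p 0.0266). With hSyn in place of n_ZFP_n_Rpl, Fan1 was not called (-0.06, adjusted p 0.401), Pms1 was called at 0.24, and Pold1 at -0.27. The signs of the 6 called genes are those of the neuron against astrocyte comparison of IPs as a mean over the sets. That comparison shares IP libraries with this ratio. Between the IPs of n_ZFP_n_Rpl and n_ZFP_a_Rpl alone, however, Msh3 and Lig1 were not called, and Lig1 had the opposite sign. Mean Input levels of Msh3 were 35.2 CPM in n_ZFP_n_Rpl and 42.6 CPM in n_ZFP_a_Rpl. For Lig1 they were 8.90 and 7.25 CPM, so its sign here came from the Inputs.

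Across the 28 groups of set, fraction and condition, mean levels of the 8 genes followed different courses. Lig1 and Pold1 had the highest Pearson correlation that Lig1 reached with another of the 8 (0.79 over 28 groups, and 0.75 over the 16 IP groups), while Lig1 and Msh3 stood at -0.24. Pms2 and Mlh3 had 0.39 over all groups and 0.82 over the IP groups. Several groups come from the same set, and all share the scaling, so these values are descriptions. Among 10989 genes with a mean of at least 5 CPM, those most alike by this measure included Tigd2 for Msh3 (0.95), Ptpra for Msh6 (0.98), Spast for Pms2 (0.93), Akap8 for Pms1 (0.97), Suz12 for Mlh3 (0.96), Rfx3 for Fan1 (0.77), Ppp1r26 for Lig1 (0.95) and Toe1 for Pold1 (0.94). Fan1, which had no call between RD and ND, also had the lowest best match.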

How the data were processed

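The deposited table holds read counts per gene symbol for 110 libraries, as the authors made them: per the submitters' processing notes, reads were aligned to mm10 with STAR and counted with HTSeq. No version or counting option is given in the sources used here. Per the labels' protocols, a TruSeq kit was used. Of 24060 rows, 24056 were used, leaving out 4 whose symbol is repeated, and of these 23923 match a symbol or synonym in RefSeq. Pairs of libraries within a set were checked for copies, and none agreed within sampling noise.

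Counts were tested with edgeR 4.0.16 (R 4.3.3): filterByExpr (minimum count 10, minimum total 15), TMM, robust quasi-likelihood fit and Benjamini-Hochberg adjustment at 0.05 over all genes tested. Each set and fraction was fitted with its 4 conditions, neuron against astrocyte IP over all 63 IP libraries, and IP against Input per set. Steps were tested on simulated data. The 8 genes and all lists were chosen with earlier results of these data known. Named besides the 8 are up to 2 genes per list, direction and comparison with the smallest p and at least 5 CPM, and the best matches by correlation over groups (log2 of CPM plus 0.1), and some results of this rule are not reported here.

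Alternatives were DESeq2 1.42.0, RLE factors, total counts only, no filter, the 2 groups alone, a replicate block and each library left out. Same-numbered IP and Input libraries of a condition deviated together in n_ZFP_n_Rpl (correlation 0.57 to 0.81 over 16 pairs) and n_ZFP_a_Rpl (0.48 to 0.76 over 15 pairs), so these numbers pair them. The labels are silent on this, so the pairing rests on the correlations. The main fits of IP against Input and of its ratio between sets leave the pairing out. Their SEs and adjusted p are those of an unpaired fit, and the replicate block is the alternative that includes the pairing.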

Additional observations from a re-analysis of the deposited data

Results flagged for a closer look

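In 192 groups of 4 or 5 libraries (8 genes by group), 8 had 1 library far from the others by Dixon's test, about the number that chance gives, 1 in 20. Msh6 had 88.4 CPM in MG IP NZ replicate 2, against 63.3 to 65.8 CPM in the others of its group, and 25.3 CPM in n_ZFP_n_Rpl Input ND replicate 2, against 30.5 to 31.6. Msh3 had 37.7 CPM in n_ZFP_n_Rpl IP RD replicate 1, against 40.3 to 40.7. Pms1 had 21.2 CPM in hSyn IP NZ replicate 2, against 17.1 to 17.3, then 20.8 CPM in n_ZFP_n_Rpl Input RZ replicate 2, against 23.0 to 23.4, and 24.1 CPM in n_ZFP_a_Rpl Input NZ replicate 2, where the others were all at 24.4. Fan1 had 16.4 CPM in MG IP RZ replicate 1, against 18.3 to 18.4, and Pold1 had 6.71 CPM in n_ZFP_n_Rpl Input RD replicate 3, against 7.51 to 7.67.

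By a test of the difference itself, 7 effects differed between groups. The change of Msh6 with the ZFP in the n_ZFP_n_Rpl IP differed between R6/2 and NCAR by -0.28. The enrichment in the IP over the Input differed between n_ZFP_n_Rpl and n_ZFP_a_Rpl by 0.33 for Msh3, 0.33 for Pms2, 0.25 for Mlh3, -0.21 for Msh6, -0.22 for Fan1 and -0.25 for Lig1.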

How the results depend on the processing

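Of 3552 values of single genes under an alternative, 3388 kept their side of the threshold (180 of them with a turned sign where neither value was called), 93 lost a call, 59 gained one and 12 turned direction where one side was called. Of 444 counts of called members, 401 stayed within 1.5 times. Total counts alone gave 5 members for RZ against RD in the n_ZFP_a_Rpl IP (2 with TMM), 4 in its Input (0), 4 in the n_ZFP_n_Rpl IP (2), 7 for RD against ND in each Input (4 in n_ZFP_n_Rpl, 4 in hSyn, 3 in n_ZFP_a_Rpl), 2 for NZ against ND in the n_ZFP_n_Rpl IP (0), 0 in the MG IP (2), and 2 and 3 for the ZFP by genotype in the n_ZFP_a_Rpl IP (0) and n_ZFP_n_Rpl IP (1). DESeq2 gave 2 for the last. NZ against ND in the MG IP had 1 with no filter and 0 with the replicate block, and RZ against RD in the n_ZFP_a_Rpl IP had 1 with the block. No number pairs the conditions (many correlations at or under 0.1), nor the hSyn IP and Input (lowest -0.28, 3 of 14 pairs at or under 0.1), so these are values only. Without 1 library the counts ranged from 3 to 5 for RD against ND in the MG IP (6) and 1 to 4 in the n_ZFP_a_Rpl IP (4), 0 to 2 for NZ against ND in the MG IP, 0 to 2 for RZ against RD in the n_ZFP_a_Rpl IP, 1 to 2 in the n_ZFP_n_Rpl IP, 1 to 2 for the ZFP by genotype there, and 0 to 1 for the ZFP by genotype in the n_ZFP_a_Rpl IP, RZ against RD in the n_ZFP_a_Rpl Input and NZ against ND in the n_ZFP_n_Rpl IP and Input. Turned values between cell types, by pair of sets, were Msh3 -0.10 and Pms1 -0.51 (n_ZFP_n_Rpl against MG), Pms1 -0.13 and Lig1 0.025 (n_ZFP_n_Rpl against n_ZFP_a_Rpl) and Msh6 0.38 (hSyn against n_ZFP_a_Rpl). For IP against Input, total counts alone turned Msh3 (-0.11) and Fan1 (-0.16) in hSyn, Mlh3 (-0.17) and Fan1 (-0.11) in n_ZFP_a_Rpl, and Msh3 (-0.077) and Lig1 (-0.13) in n_ZFP_n_Rpl, through its shift of all genes. Pms1 turned to 0.24 for the enrichment with hSyn in place of n_ZFP_n_Rpl. The cause was not tested. Pold1, with the lowest counts, has the largest SE of the 8 genes in every comparison.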
